A study of Mus musculus with 20 samples.

Results

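The genes described here are 36 antiviral genes of the type I interferon response, taken as a list of named mouse genes and read in 10 RNA sequencing libraries of eosinophils from lung. Each symbol was matched to an Ensembl gene identifier, and all 36 were found among the 49315 identifiers in the count data. All 36 also passed the filter on low counts that left 16500 genes for testing. No measured value enters the rule that names them, but the list was drawn up with earlier results of these data known. The series holds 20 samples in 4 groups of 5, and each sample pooled the lungs of 3 to 5 mice before eosinophils were sorted by flow cytometry. One of the groups used here is resting lung, from C57BL/6 mice that received no treatment. The other is lung taken 7 days after transplantation without costimulatory blockade (called CSB in the labels), from a model in which C57BL/6 recipients received Balb/c lungs. Per the labels' protocols, the eosinophils that infiltrate these grafts come from the recipient. The groups with blockade, sampled on days 7 and 30, were not analysed here. The untreated mice had no operation, so the effects of surgery, of the foreign graft and of time cannot be told apart in this comparison. The labels do not say that the pools were independent experiments. Each p-value therefore weighs the difference between the groups against the spread of these pools only.

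Type I interferons, which include the interferon alpha family and interferon beta, bind a receptor made of Ifnar1 and Ifnar2, and the attached kinases Jak1 and Tyk2 then phosphorylate transcription factors of the STAT family. Together with Irf9 these proteins form a transcription factor that binds the interferon-stimulated response element (ISRE), and the genes it switches on sense viral RNA, degrade it, block its translation or trap virus particles at membranes. Interferon gamma uses another receptor and STAT pairs that bind gamma-activated sites (GAS), and many antiviral genes respond to both kinds of interferon. Eosinophils are granulocytes best known from allergy and worm infection, and in the lung they are also described to take up and respond to respiratory viruses.

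The response element can be read directly in the DNA before some of the members. The RefSeq promoter table (build GRCm38.p6) held 26 of the 36 genes, and the 250 bases before each start site were searched on both strands for the ISRE core, spelled GAAA, any 2 bases and GAAA, and for the GAS core TTCNNNGAA, with overlapping matches counted. The ISRE core stood in 11 of the 26 members (42.3%), against 3.46% of 27025 genes in the table. These 11 were Ifit1, Ifit3, Ifit3b, Ifit1bl1, Oas1a, Oas1g, Oas3, Isg15, Rsad2, Bst2 and Trim30a. The GAS core stood in 5 of 26 (19.2%), against 8.13% of all genes, and these were Ifit2, Oas1a, Eif2ak2, Samhd1 and Bst2. A match is a run of letters and does not show that a factor binds there. The sequences that follow are shown because they hold the motif in different arrangements and because each pair of neighbouring copies carries nearly the same one. They run 5′ to 3′ on the strand of the gene, end at or before the start site, and carry the ISRE core in capitals, where TTTC, any 2 bases and TTTC is the same motif read from the other strand. Isg15 (chr4:156200819-156200918, minus strand) holds 3 overlapping cores, Ifit3 (chr19:34583329-34583528, plus strand) and Ifit3b (chr19:34607757-34607956, plus strand) hold 2 separate ones each, and Oas1a (chr5:120907526-120907625, minus strand) and Oas1g (chr5:120887614-120887713, minus strand) hold 2 overlapping ones each.

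Isg15: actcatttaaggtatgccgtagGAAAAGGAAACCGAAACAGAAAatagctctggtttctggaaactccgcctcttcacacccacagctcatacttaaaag
Ifit3: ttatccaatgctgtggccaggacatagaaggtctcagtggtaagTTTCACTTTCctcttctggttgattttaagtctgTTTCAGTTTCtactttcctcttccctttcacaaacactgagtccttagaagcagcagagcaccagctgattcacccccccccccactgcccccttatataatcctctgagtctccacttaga
Ifit3b: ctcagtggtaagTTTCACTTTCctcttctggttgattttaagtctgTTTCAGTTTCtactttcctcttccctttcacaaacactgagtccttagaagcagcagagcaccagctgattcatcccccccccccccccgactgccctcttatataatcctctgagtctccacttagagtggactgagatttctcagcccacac
Oas1a: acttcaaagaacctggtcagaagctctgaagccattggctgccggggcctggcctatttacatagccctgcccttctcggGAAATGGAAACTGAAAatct
Oas1g: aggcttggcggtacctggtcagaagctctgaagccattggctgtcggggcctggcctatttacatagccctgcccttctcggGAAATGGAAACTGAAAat

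In the whole 250-base windows, Ifit3 and Ifit3b were identical at 217 of 218 aligned bases (99.5%, beside 64 gap positions), and Oas1a and Oas1g at 212 of 244 (86.9%, beside 12 gap positions). Members with the ISRE core had a median log2 fold change of 1.85 at day 7, and the 15 without it in this window had a median of 1.57. The ranges overlapped, from 0.72 (Ifit3b) to 2.80 (Oas1g) with the core and from 0.72 (Ifitm3) to 3.11 (Ifit2) without it. For the GAS core the medians were 1.76 with it and 1.65 in the 21 members without it. Neither difference was tested, and members absent from the promoter table are not included.

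Read depth differed between the groups: total counts were 6666577 to 12883144 per library in resting lung and 15695074 to 26683784 at day 7, and the groups came in separate count tables, so group, table and depth cannot be told apart. Levels are given as CPM (counts relative to each library's total) on totals scaled by the trimmed mean of M-values (TMM). On the unscaled totals, 3 counts correspond to 0.233 to 0.450 CPM in resting libraries and to 0.112 to 0.191 CPM at day 7, for counting error only. The summed level of 14 eosinophil markers was 2078 to 3614 CPM in resting and 2104 to 4087 CPM in day 7 libraries, and none of them was at 0 (3 of 14 higher, 6 lower). The 6 lower ones were granule genes, Prg2, Prg3, Epx, Ear1, Ear2 and Ear6, none of which overlapped between groups; Epx, eosinophil peroxidase, had a mean of 93.1 CPM in resting lung and 6.89 CPM at day 7, and Prg2, major basic protein, 463 and 81.5 CPM. The higher ones were Csf2rb, with means of 425 and 984 CPM, Siglecf and Il1rl1. Markers of other cells were detected too, and several moved with the group. Monocyte and interstitial macrophage markers summed to 1482 to 2458 CPM in resting lung and to 4042 to 9453 CPM at day 7 (11 of 14 higher, none lower), and T cell markers to 94.8 to 133 and to 365 to 942 CPM (12 of 12 higher). Natural killer cell markers summed to 87.5 to 123 CPM in resting lung and 256 to 566 CPM at day 7 (6 of 9 higher), and conventional dendritic cell markers to 246.5 to 329 and 373 to 495 CPM (6 of 10 higher, 1 lower). Endothelial markers went the other way, from 2562 to 3542 CPM in resting lung to 82.4 to 166 CPM at day 7 (10 of 10 lower), as did epithelial ones, from 3395 to 4797 to 80.4 to 543 CPM (9 of 10 lower). The sums for plasmacytoid dendritic cells, known as strong producers of type I interferon, were 186 to 266 CPM in resting lung and 137 to 167 CPM at day 7 (4 of 10 higher, 3 lower). B cell markers summed to 715 to 1017 and 505 to 784 CPM (0 of 8 higher, 7 lower), and neutrophil markers to 9413 to 12556 and 5299 to 10790 CPM (0 of 13 higher, 5 lower). No marker in these lists was at 0 in all libraries, and the part of these cells in the values below was not tested. In such bulk libraries a change in the number of cells of a type and a change in RNA per cell cannot be told apart.

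The antiviral genes were higher in the day 7 graft almost throughout. Of the 36 genes, 34 were higher at an adjusted p below 0.05 and none was lower, while 23.3% of all 16500 tested genes were called higher and 23.4% lower (edgeR quasi-likelihood test, Benjamini-Hochberg adjustment over all tested genes, 5 pools per group). The genes that did not pass were Ifit3b and Mx2. The median log2 fold change, day 7 minus resting, was 1.83 over the members and 0.05 over all tested genes, of which 3.4% reached or passed the members' median. Of the 36 genes, 30 were called and at least 2-fold higher, against 9.08% of all tested genes, 12 were at least 4-fold higher, against 2.8% of all, and Ifit2 alone was past 8-fold. In 30 of 36 genes every day 7 pool lay above every resting pool, which held for 16.4% of all tested genes. Adjusted p of the called members ran from 8.49e-08 for Parp9 to 0.0300 for Ifi27.

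**Figure D1:**
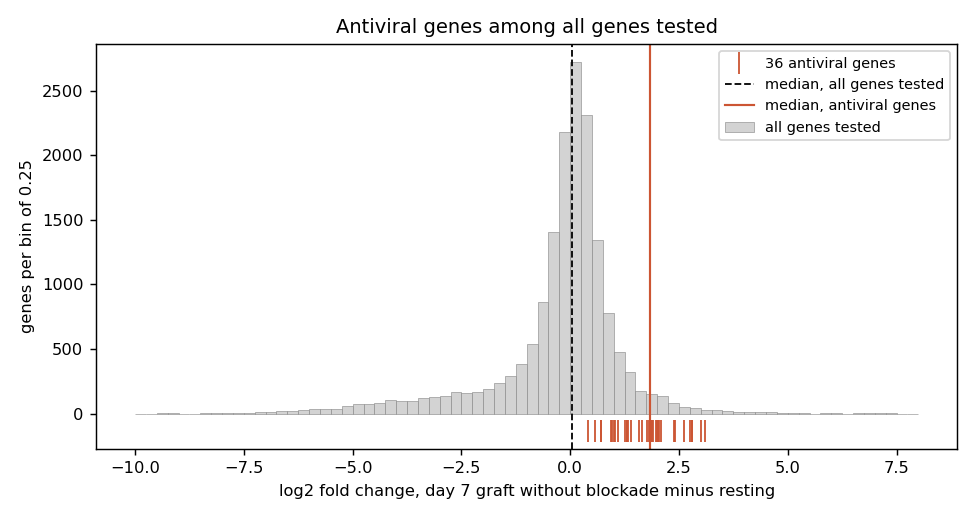
Histogram of the log2 fold change (day 7 graft without blockade minus resting; x axis) over the 16500 tested genes (y axis, genes per bin), with a tick under the bars for each of the 36 antiviral genes. The dashed line is the median of all tested genes (0.05) and the solid line the median of the antiviral genes (1.83); all 36 ticks lie above 0.

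Among the sensors that recognise viral RNA in the cytosol, all 3 were higher, with a median log2 fold change of 1.65. Dhx58 (chr11:100694884-100704271 on mm10), which encodes LGP2, a helicase that tunes the other sensors, had 17.1, 19.6, 20.97, 25.8 and 18.005 CPM in resting pools 1 to 5 and 87.2, 101, 98.8, 76.3 and 50.1 CPM in day 7 pools 1 to 5. The groups did not overlap, day 7 pool 5 was the lowest of its group, and the log2 fold change was 2.03 ± 0.19 (edgeR adjusted p = 1.19e-06), the largest of the sensors. Ddx58 (chr4:40203773-40239828), which encodes RIG-I, the sensor of uncapped viral RNA ends, had 73.5, 80.8, 85.2, 69.2 and 86.2 CPM in resting pools and 186, 135, 130.3, 172 and 135 CPM in day 7 pools. Its groups did not overlap either, pool 1 was highest, and the change was smaller, at 0.94 ± 0.13 (edgeR adjusted p = 3.87e-05). Per length Ddx58 was the most abundant of the sensors in resting lung, at 11.2 RPKM (CPM divided by the kilobases of exon), and Dhx58 the most abundant at day 7, at 25.2 RPKM against 21.5. Ifih1, which encodes MDA5, the sensor of long double-stranded RNA, ranged over 24.5 to 33.4 CPM in resting and 54.6 to 129.9 CPM in day 7 pools, a log2 fold change of 1.65.

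**Figure D2:**
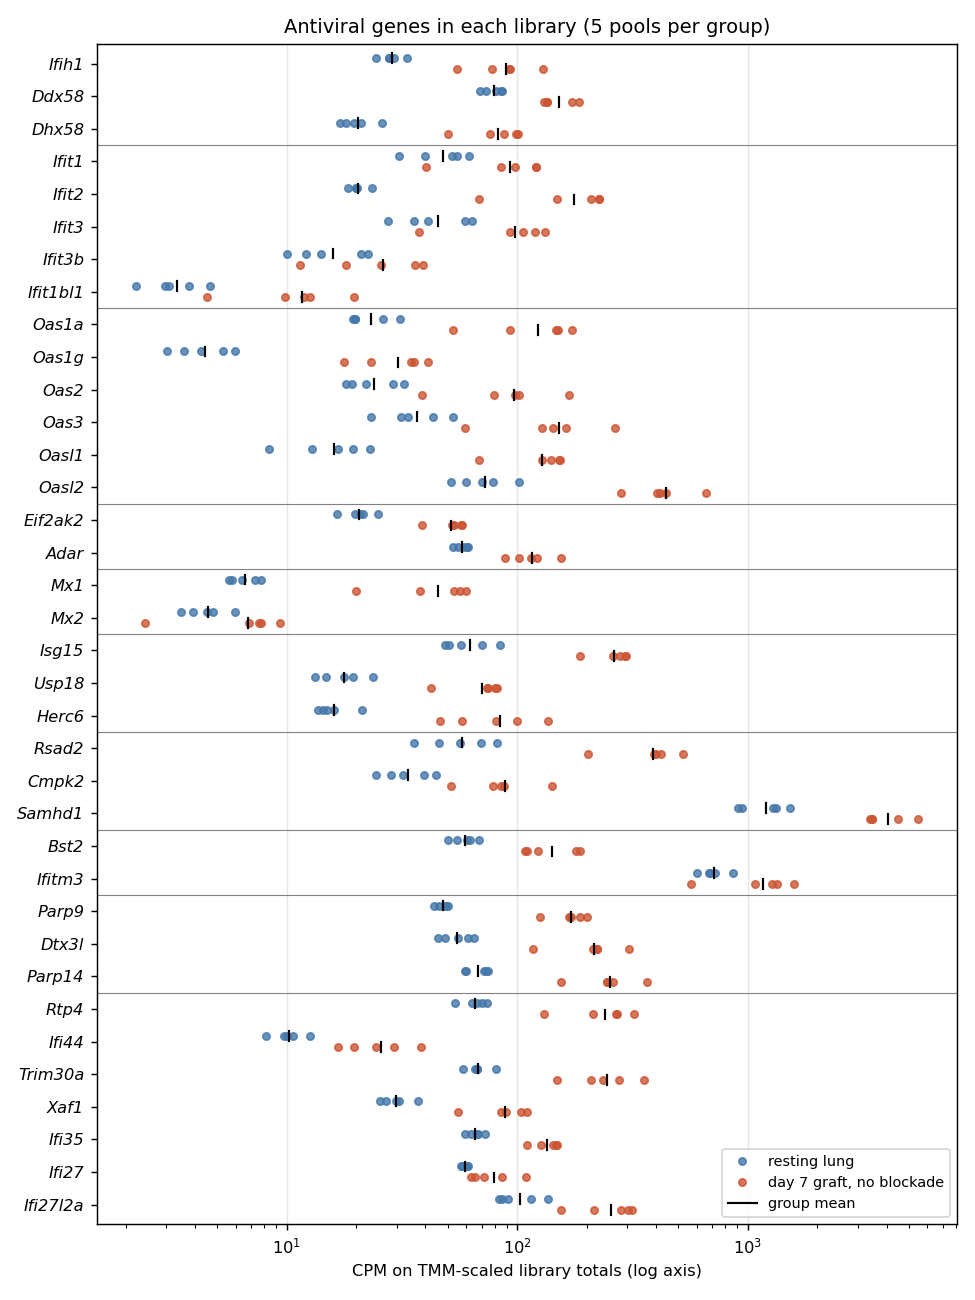
CPM on TMM-scaled totals (x axis, log scale) of each of the 36 antiviral genes (y axis, grouped by role) in the 5 resting and the 5 day 7 pools, 1 point per pool, with a black bar at each group mean. In 30 genes the day 7 points all lie to the right of the resting points, and the Ifit genes other than Ifit2, Mx2 and Ifitm3 are those whose points overlap.

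The IFIT proteins bind viral RNA and block its translation, and their log2 fold changes ran from 0.72 to 3.11. Of 5 genes 4 were higher, with a median log2 fold change of 1.11, but only in Ifit2 did the groups stay apart. Ifit2 (chr19:34550694-34576419) had 20.2, 19.9, 18.4, 23.5 and 20.1 CPM in resting pools and 226, 149, 209.6, 225 and 68.6 CPM in day 7 pools. Its resting pools lay close together, every day 7 pool was above them, and pool 5 was the lowest of them. The log2 fold change of 3.11 ± 0.28 (edgeR adjusted p = 1.37e-06) was the largest of all 36 genes. Ifit3 (chr19:34583531-34588731), the most abundant of the family per length (26.03 RPKM resting, 56.02 RPKM at day 7), had 35.6, 59.4, 40.9, 63.6 and 27.6 CPM in resting pools and 106, 93.5, 119.5, 132 and 37.4 CPM in day 7 pools. Day 7 pool 5 fell among the resting pools and the other 4 lay above them all, with a log2 fold change of 1.11 ± 0.31 (edgeR adjusted p = 0.0102).

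Ifit3b (chr19:34607970-34613401), the neighbouring copy of Ifit3, had 12.1, 20.98, 14.1, 22.4 and 10.003 CPM in resting pools and 25.8, 18.1, 35.96, 38.9 and 11.5 CPM in day 7 pools. The groups overlapped, with 3 day 7 pools above all resting pools, and the difference of 0.72 ± 0.32 (edgeR adjusted p = 0.0875) did not pass the test. It passed without day 7 pool 5 (edgeR adjusted p = 0.0137, log2 fold change 0.92) and without day 7 pool 2 (edgeR adjusted p = 0.0492, log2 fold change 0.84). Of the 50-base windows in Ifit3 transcripts, 51.2% also occur in Ifit3b, and for reads in them the counting cannot separate the genes with certainty. Such sharing with other transcripts was 12.5% for Herc6, 11.6% for Rtp4 and 10% or less for the other members outside the Ifit3 and Oas1 pairs. Summed into 1 feature, Ifit3 and Ifit3b were higher by 1.02 ± 0.31 (edgeR adjusted p = 0.0162). Ifit1, which binds RNA ends that lack the host cap methylation, ranged over 30.7 to 61.6 CPM in resting and 40.2 to 121 CPM in day 7 pools (log2 fold change 0.96), and Ifit1bl1, an Ifit1-like gene, over 2.22 to 4.65 and 4.53 to 19.6 CPM (1.82). In both Ifit1 and Ifit1bl1, only pool 5 overlapped with resting lung. All 5 genes lie on chromosome 19, between 34550694 and 34650009.

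The OAS family showed the largest group median, 2.51, with 6 of 6 genes higher, 6 of 6 at least 4-fold, and no overlap between the groups in any. OAS enzymes make oligoadenylates when they meet double-stranded RNA. Oasl2 (chr5:114896936-114912234), the family member with the most RNA per length at day 7, had 70.5, 102, 59.7, 78.8 and 51.6 CPM in resting pools and 661, 418, 442, 405 and 282 CPM in day 7 pools. The lowest day 7 pool, pool 5, was still above the highest resting pool, and the log2 fold change was 2.61 ± 0.24 (edgeR adjusted p = 1.12e-06). Oasl1 (chr5:114923240-114937915), which in mice represses translation of Irf7, had 8.37, 22.9, 19.4, 16.8 and 12.8 CPM in resting pools and 139.8, 151, 128, 154 and 68.2 CPM in day 7 pools. Day 7 pools 1 to 4 lay close together, pool 5 lay lower, and the change of 3.00 ± 0.28 (edgeR adjusted p = 1.85e-06) was the largest of the family. Oas1a, an active synthetase, and its neighbour Oas1g ranged over 19.4 to 31.1 and 3.04 to 5.95 CPM in resting lung and over 52.6 to 173 and 17.7 to 40.9 CPM at day 7, with log2 fold changes of 2.41 and 2.80. Transcripts of Oas1a share 57.6% of their 50-base windows with other genes, nearly all of them with Oas1g, and the summed pair was higher by 2.48 ± 0.28 (edgeR adjusted p = 9.55e-06). Oas2 (18.1 to 32.1 against 38.7 to 167 CPM; 2.01) and Oas3 (23.2 to 52.7 against 59.4 to 266 CPM; 2.05), which carry additional copies of the synthetase unit, had the smallest log2 fold changes of the family. The family lies in 2 clusters on chromosome 5, with Oasl2 and Oasl1 at 114896936 to 114937915 and the other 4 genes at 120730333 to 120907521.

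Both enzymes that act directly on double-stranded RNA were higher. Eif2ak2 (chr17:78852564-78882573), the kinase PKR that stops translation, had 20.9, 24.9, 19.7, 16.5 and 21.3 CPM in resting pools and 52.3, 57.1, 57.3, 53.2 and 38.6 CPM in day 7 pools. Day 7 pools 1 to 4 lay within a narrow band and pool 5 below it, with no overlap and a log2 fold change of 1.32 ± 0.14 (edgeR adjusted p = 4.30e-06). Adar (chr3:89715022-89753446), which edits adenosine to inosine in double-stranded RNA, had 52.6, 60.5, 61.2, 55.4 and 58.6 CPM in resting pools and 154, 121, 114, 102 and 88.7 CPM in day 7 pools. Its log2 fold change was 1.01 ± 0.14 (edgeR adjusted p = 4.23e-05), without overlap. Exons of Adar and of Chrnb2 overlap by 1365 bases on opposite strands, and no source used here states the strand setting of the counting.

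The Mx GTPases, which assemble around viral nucleoproteins, gave different calls. Mx1 (chr16:97447035-97462907) had 5.62, 7.76, 5.79, 7.30 and 6.37 CPM in resting pools and 37.8, 56.7, 59.7, 53.1 and 19.99 CPM in day 7 pools, without overlap, a log2 fold change of 2.79 ± 0.27 (edgeR adjusted p = 2.18e-06). Mx2 (chr16:97535308-97560900) had 3.50, 4.77, 5.99, 3.92 and 4.52 CPM in resting pools and 6.89, 9.40, 7.76, 7.58 and 2.42 CPM in day 7 pools. Day 7 pools 1 to 4 were above every resting pool and pool 5 was below every one, and the difference of 0.58 ± 0.31 (edgeR adjusted p = 0.138) did not pass. Without day 7 pool 5 it did (edgeR adjusted p = 0.00538, log2 fold change 0.81). The difference between the responses of the genes was not tested. C57BL/6 mice, like most laboratory strains, are known to carry defective alleles of Mx1 and Mx2, so the RNA here is not a measure of working protein.

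The ISG15 system attaches the small protein ISG15 to other proteins and takes it off again, and all 3 of its members were higher, by a median of 2.08. Isg15 (chr4:156199424-156200818), the modifier itself, had 48.6, 84.3, 70.4, 50.7 and 56.8 CPM in resting pools and 297, 294, 259, 278 and 188 CPM in day 7 pools. The day 7 pools stood well clear of resting lung, with pool 5 lowest, and the log2 fold change was 2.08 ± 0.18 (edgeR adjusted p = 5.79e-07). Per length it rose from 82.2 to 348 RPKM. Herc6 (chr6:57581000-57664632), the main ISG15 ligase in mice, had 16.1, 15.02, 21.3, 14.3 and 13.7 CPM in resting pools and 136, 81.05, 99.6, 57.7 and 46.4 CPM in day 7 pools. Its day 7 pools spread more widely than those of Isg15 and its log2 fold change of 2.39 ± 0.27 (edgeR adjusted p = 9.66e-06) was the largest of the system. Usp18, which removes ISG15 and dampens signalling at Ifnar2, ranged over 13.3 to 23.7 CPM in resting and 42.1 to 81.8 CPM in day 7 pools (log2 fold change 1.99). The promoter of Isg15 with its overlapping cores is printed above.

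Enzymes that change the nucleotide pool were higher in 3 of 3 cases, with a median of 1.76. Rsad2 (chr12:26442746-26456452), viperin, which makes a chain-terminating nucleotide, had 45.8, 81.7, 56.6, 69.4 and 35.8 CPM in resting pools and 523, 419, 398, 393 and 202 CPM in day 7 pools. The change was 2.74 ± 0.27 (edgeR adjusted p = 2.86e-06), with no overlap and the lowest day 7 value again in pool 5. Samhd1 (chr2:157097533-157135265), which breaks down deoxynucleotides, had 942, 1524, 1327, 903 and 1290.2 CPM in resting pools and 3448, 3395, 3451, 5489.8 and 4464 CPM in day 7 pools. Here pool 5 was not low, as only pool 4 stood higher, and the log2 fold change was 1.76 ± 0.20 (edgeR adjusted p = 6.79e-06). Samhd1 had the highest CPM of all 36 genes in every library; CPM grows with the length of a transcript, and per length it stood at 131 RPKM in resting lung and 443 RPKM at day 7. Cmpk2, the mitochondrial nucleotide kinase next to Rsad2 on chromosome 12, ranged over 24.5 to 44.6 and 51.5 to 142 CPM (log2 fold change 1.40).

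The proteins that restrict viruses at membranes already stood at 1048 RPKM (Ifitm3) and 65.6 RPKM (Bst2) in resting lung, against a median of 8.03 RPKM over the members, and both were higher at day 7. Ifitm3 (chr7:141009586-141010770), which blocks fusion of virus and endosome, had 684, 719.8, 605, 861 and 681 CPM in resting pools and 1334, 1590.5, 1271, 1078 and 567 CPM in day 7 pools. Pool 5 lay below all resting pools and the other 4 day 7 pools above them, with a log2 fold change of 0.72 ± 0.22 (edgeR adjusted p = 0.0170), a call that did not hold with scaling by library totals alone (edgeR adjusted p = 0.0682). It had the most RNA per length of all 36 genes in both groups, 1048 RPKM in resting lung and 1723 RPKM at day 7. Ifitm3 is also expressed by endothelium, macrophages and other lung cells, whose marker sums differed between the groups as given above, and their part was not tested. Bst2 (chr8:71534255-71537456), tetherin, which holds budding viruses at the cell surface, had 54.9, 60.3, 62.3, 68.4 and 50.3 CPM in resting pools and 181, 187, 124, 108 and 110.1 CPM in day 7 pools, without overlap. Its log2 fold change was 1.26 ± 0.17 (edgeR adjusted p = 4.39e-05). Bst2 also marks plasmacytoid dendritic cells, whose marker sum was 137 to 167 CPM at day 7, against 186 to 266 CPM in resting lung. That list did not move one way: Tcf4, Spib and Ly6d were lower (0.40-fold, 0.45-fold and 0.60-fold), while Siglech (2.11-fold), Pacsin1 (10.3-fold), Klk1 (4.04-fold) and Runx2 (1.60-fold) were higher, and the part of these cells in the Bst2 level was not tested.

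The genes of ADP-ribosylation and its ubiquitin partner were higher in 3 of 3 cases, by a median of 1.90. Dtx3l (chr16:35926511-35939151), a ubiquitin ligase that works as a complex with Parp9, had 45.3, 55.1, 61.2, 64.6 and 48.5 CPM in resting pools and 307, 221, 213, 221 and 117 CPM in day 7 pools. No day 7 pool reached down to resting lung, and the change was 1.97 ± 0.21 (edgeR adjusted p = 5.22e-06). Parp9 (43.7 to 50.2 against 125 to 201 CPM; 1.84) and Parp14, an ADP-ribosyltransferase (59.5 to 74.6 against 155 to 364 CPM; 1.90), had log2 fold changes close to it. Parp9 and Dtx3l start from neighbouring sites on opposite strands and share 458 exonic bases, so without known strand a part of their reads cannot be assigned with certainty.

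The 7 remaining genes were all higher, with a median of 1.32. Rtp4 (chr16:23520291-23614222), a receptor transporter that also inhibits virus replication, had 63.4, 74.3, 66.95, 70.3 and 53.9 CPM in resting pools and 319, 270.2, 268, 213 and 130.2 CPM in day 7 pools, a log2 fold change of 1.87 ± 0.20 (edgeR adjusted p = 5.96e-06). Ifi27l2a (chr12:103442167-103443680), a small mitochondrial membrane protein, had 85.9, 115, 91.1, 136 and 83.5 CPM in resting pools and 215, 316, 283, 303 and 155 CPM in day 7 pools, a change of 1.31 ± 0.20 (edgeR adjusted p = 1.37e-04). Both were without overlap, and Ifi27l2a had the most RNA per length of this group (221 RPKM resting, 549 RPKM at day 7). Trim30a, a tripartite-motif protein that restrains inflammatory signalling, ranged over 58.4 to 80.6 and 149 to 354 CPM (1.85 on the log2 scale), Xaf1, which promotes cell death, over 25.3 to 37.1 and 55.3 to 109.9 CPM (1.57). Ifi44 ranged over 8.16 to 12.7 and 16.7 to 38.1 CPM (1.32) and Ifi35 over 59.3 to 72.8 and 110.4 to 149 CPM (1.04). Ifi27, the neighbour of Ifi27l2a, was the least changed of the called genes: resting pools held 57.02 to 61.5 CPM and day 7 pools 63.01 to 109 CPM, with a log2 fold change of 0.41 ± 0.14 (edgeR adjusted p = 0.0300). Its call ended without day 7 pool 1 (edgeR adjusted p = 0.0563) and without resting pool 1, 2, 3 or 5 (edgeR adjusted p = 0.0596, 0.0511, 0.0501 and 0.0568), and also with library totals alone, with a filter of 10 CPM in 5 libraries and with a replicate block (edgeR adjusted p = 0.218, 0.101 and 0.0671).

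**Figure D3:**
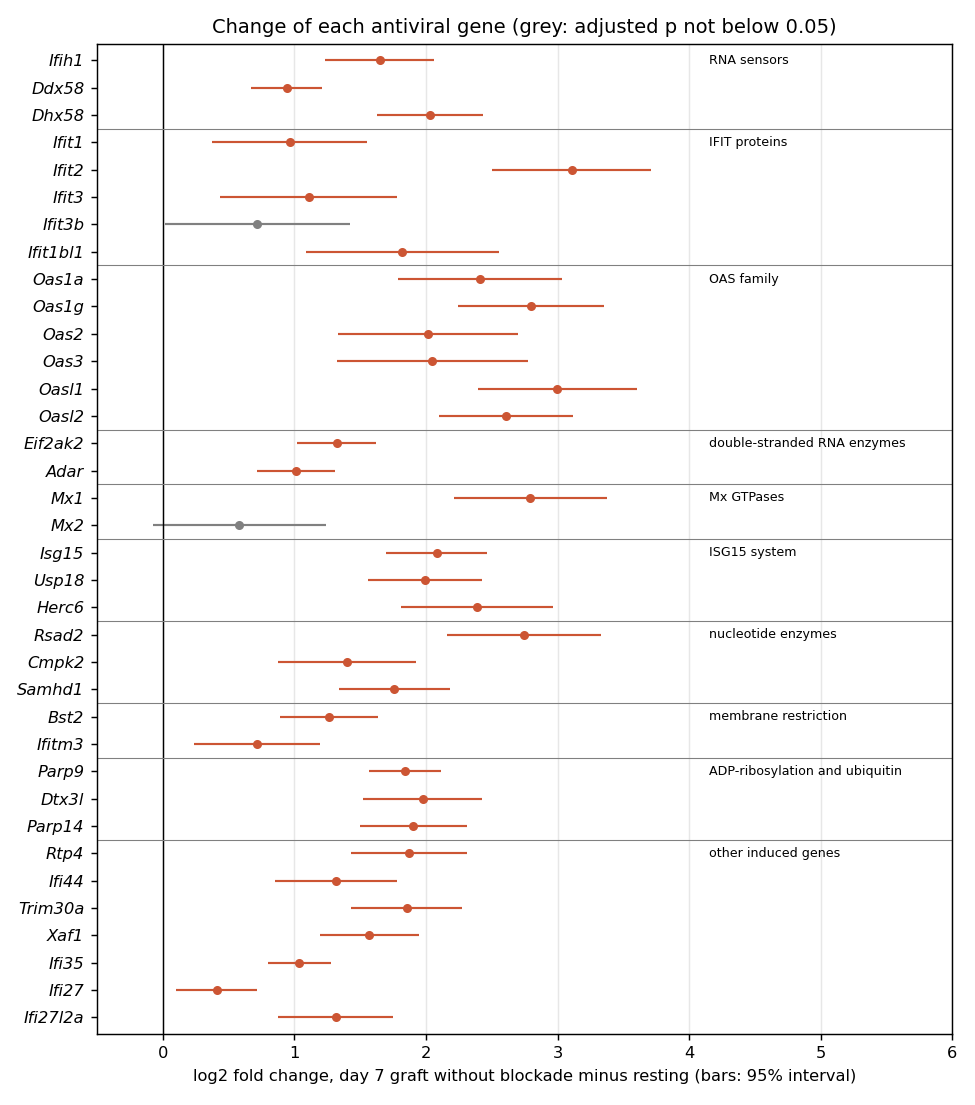
Log2 fold change (day 7 graft without blockade minus resting; x axis) of each of the 36 antiviral genes (y axis, grouped by role), with bars for the 95% interval from the edgeR fit. Red genes passed the test and the grey ones, Ifit3b and Mx2, did not; Ifit2 is farthest to the right at 3.11 and Ifi27 farthest to the left at 0.41.

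Per exon length, the members moved up the ranking of the transcriptome. Their RPKM ran from 1.26 for Mx2 to 1048 for Ifitm3 in resting lung, with a median of 8.03, and from 1.88 for Mx2 to 1723 for Ifitm3 at day 7, with a median of 31.1. Among the 1650 genes that make up the top 10% by RPKM there were 8 members in resting lung and 18 at day 7. The spread between pools was wider in the graft: the median coefficient of variation over the members was 17.9% in resting lung and 30.8% at day 7, and it was larger at day 7 in 33 of 36 genes. Over all tested genes the medians were 19.2% and 22.8%, and the coefficient was larger at day 7 in 59.3%.

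For most members the lowest day 7 value came from the same pool. Day 7 pool 5 had the lowest value of its group in 31 of 36 members and the highest in none, whereas 26.4% of all tested genes were lowest in that pool. The exceptions were Ddx58, Samhd1, Bst2, Ifi44 and Ifi27. On a log2(CPM + 0.5) scale the members of pool 5 stood at a median of -0.70 from the mean of the 5 day 7 pools, and all tested genes at -0.01. Pool 1 was the highest of its group in 20 members and stood at a median of 0.325. Without pool 5, the groups stayed apart in 35 of 36 members, in place of 30, and 36 of 36 were called higher (edgeR quasi-likelihood test). Of all 16622 genes tested in that fit, 3976 were called higher, and the share of all genes that stayed apart was not computed. Pool 5 is singled out for its low values in these same members, so a rise in their counts without it is not a separate result. Among 46 other tested antiviral genes, listed below, 34 were lowest in pool 5 too.

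Markers and interferon genes of pool 5 also differed from those of the other day 7 pools in part. Ifng, the gene of interferon gamma, stood at 74.8 CPM in pool 5 and at 5.99 to 24.8 CPM in the other day 7 pools. The T cell marker sum was 942 CPM in pool 5 against 365 to 606 CPM, the eosinophil sum 4087 CPM against 2104 to 3234 CPM, while the monocyte and macrophage sum was much alike in pool 5 (4042 CPM) and pool 4 (4114 CPM) and stood at 5466 to 9453 CPM in the other 3. Irf7, the factor that amplifies interferon production, was at 247 CPM in pool 5 and at 460.3 to 606 CPM in the others. The part of these differences in the lower member levels of pool 5 was not tested. In resting lung no pool stood out as far: pool 5 was lowest in 15 members and pool 2 highest in 15.

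**Figure D4:**
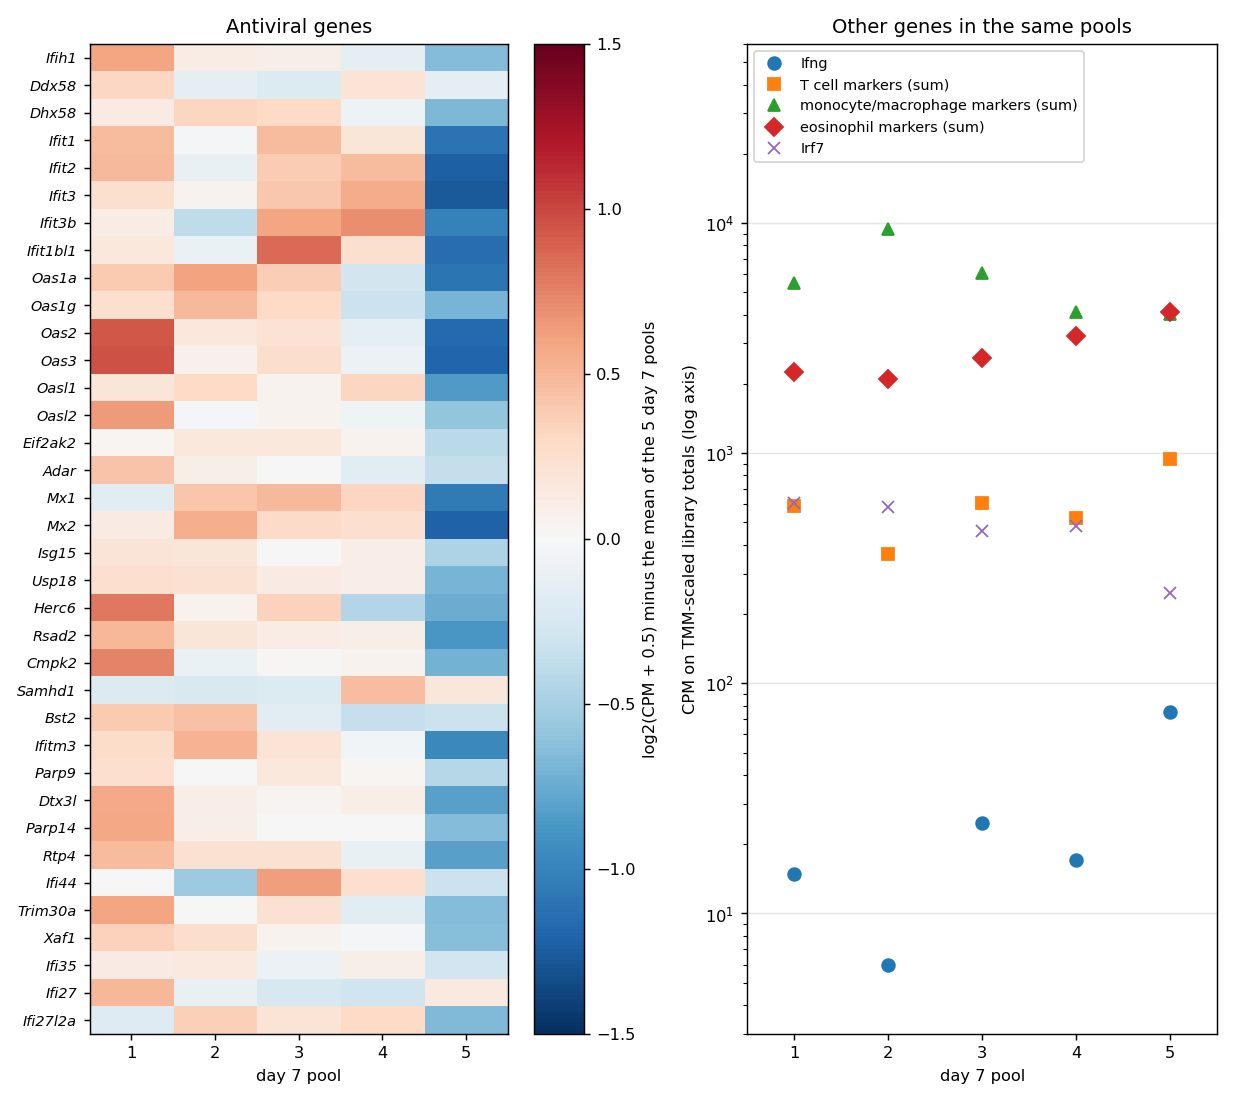
Left, a colour map of log2(CPM + 0.5) minus the mean of the 5 day 7 pools, with the 36 antiviral genes in rows and the day 7 pools in columns (blue below the mean, red above). Right, CPM (y axis, log scale) of Ifng and Irf7 and of the summed T cell, monocyte/macrophage and eosinophil markers in the same pools; pool 5 is blue in nearly every row, with a median of -0.70, and has the highest Ifng, at 74.8 CPM.

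The interferon genes themselves were barely detected, with 1 exception. Of 21 ligand genes only Ifng passed the filter on low counts, and it had 1.48, 0.398, 0.620, 0 and 0.889 CPM in resting pools and 14.8, 5.99, 24.8, 17.1 and 74.8 CPM in day 7 pools. On the log2 scale it was higher at day 7 by 5.26 ± 0.75 (edgeR adjusted p = 8.45e-05), with no overlap, and by 4.46 without pool 5 (edgeR adjusted p = 3.01e-05). Ifnb1, the gene of interferon beta, had 0.318, 0, 0.620, 0 and 0 CPM in resting pools and 0.548, 0.165, 0.902, 0 and 0.431 CPM in day 7 pools, or 9 and 43 counts in all, and was not tested. The groups of Ifnb1 overlapped, with libraries at 0 in both. The 14 interferon alpha genes (Ifnab included) had 31 counts over the 5 resting libraries and 7 over the 5 deeper day 7 libraries, and 3 of them were at 0 in all 10. Without the filter on low counts, Ifng was still the only ligand called. No difference in type I interferon RNA was detected at these low counts, and whether depth limited this was not tested.

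Of 21 receptor and signalling genes 11 were higher, 1 was lower and 9 did not pass, with a median log2 fold change of 0.56. Of all tested genes, 23.3% were called higher and 23.4% lower. Stat2, a STAT factor of the type I response, had 37.1, 42.9, 37.5, 64.2 and 44.4 CPM in resting pools and 236, 206, 174, 173 and 87.8 CPM in day 7 pools (log2 fold change 1.96 ± 0.24, edgeR adjusted p = 2.07e-05). Irf9, which joins STAT factors at the ISRE, had 105, 112, 114, 109 and 92.2 CPM in resting pools and 201, 193, 189, 201 and 156 CPM in day 7 pools (log2 fold change 0.82 ± 0.11, edgeR adjusted p = 2.87e-05). Both Stat2 and Irf9 were thus higher without overlap. Irf7 had 99.5, 163, 111, 173 and 136 CPM in resting pools and 606, 584, 460.3, 484 and 247 CPM in day 7 pools (log2 fold change 1.80 ± 0.23, edgeR adjusted p = 3.16e-05). In Irf7 too the groups did not overlap, and pool 5 was lowest. The receptor chains had smaller log2 fold changes: Ifnar1 had 248, 389, 328, 233 and 333 CPM in resting pools and 381, 379, 359, 444 and 388 CPM in day 7 pools. Its difference of 0.35 ± 0.15 (edgeR adjusted p = 0.0656) did not pass. Among the fits that left out a single pool, Ifnar1 passed only without resting pool 2 (edgeR adjusted p = 0.0184). Ifnar2 had 114, 136, 141, 121 and 134 CPM in resting pools and 203, 244, 180.5, 179 and 186 CPM in day 7 pools and was higher by 0.62 ± 0.12 (edgeR adjusted p = 5.93e-04). The pools of Ifnar2 did not overlap between groups, and those of Ifnar1 did. Socs1, a feedback inhibitor of the Jak kinases, had 8.80, 7.76, 11.6, 12.3 and 7.04 CPM in resting pools and 137, 163, 114, 154 and 101 CPM in day 7 pools. Its change was the largest among the receptor and signalling genes, at 3.83 ± 0.19 (edgeR adjusted p = 5.72e-09). Not every feedback inhibitor of the list passed the test. Irf8, a factor of myeloid development that interferon gamma induces, had 69.5, 65.1, 69.4, 108 and 71.3 CPM in resting pools and 414, 479, 489, 419 and 298 CPM in day 7 pools (log2 fold change 2.45 ± 0.18, edgeR adjusted p = 1.25e-07). The lower gene was Ptpn11, a phosphatase (-0.47, edgeR adjusted p = 9.39e-04).

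**Figure D5:**
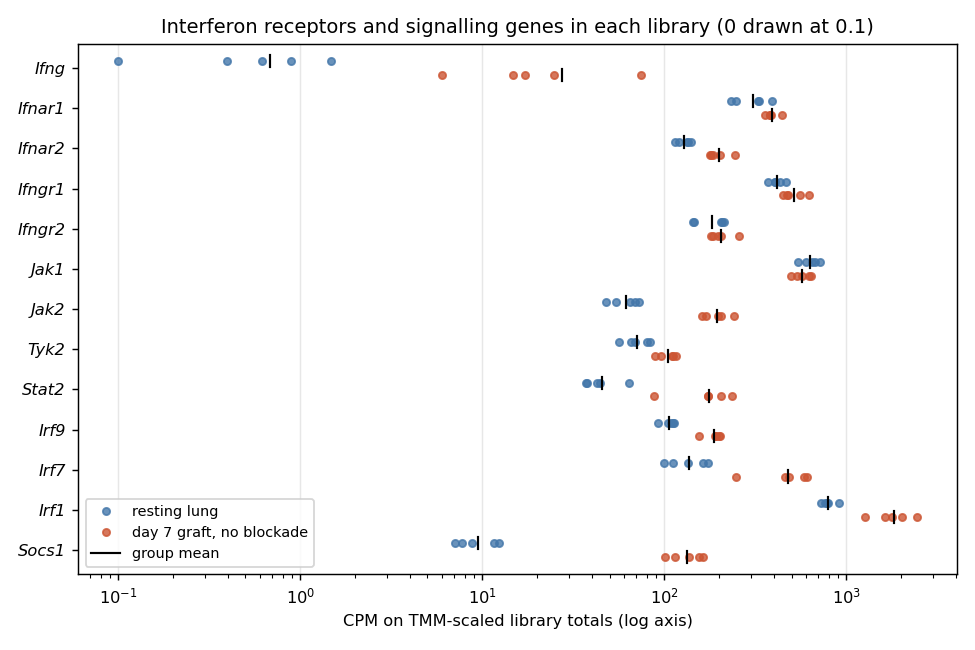
CPM on TMM-scaled totals (x axis, log scale, with 0 drawn at 0.1) of 13 interferon, receptor and signalling genes (y axis) in the 5 resting and 5 day 7 pools, 1 point per pool and a black bar at each group mean. Ifng and Socs1 are separated the most, while Ifnar1, Ifngr1, Ifngr2 and Jak1 overlap between groups.

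Of 16 genes that sense nucleic acids or pass the signal on, 10 were higher, 2 were lower and 4 did not pass, with a median log2 fold change of 0.88. The shares over all tested genes were 23.3% higher and 23.4% lower. Zbp1, a sensor of Z-form nucleic acid that can start cell death, had 25.1, 56.8, 34.1, 48.95 and 41.4 CPM in resting pools and 498, 484, 459.9, 385 and 300.3 CPM in day 7 pools (log2 fold change 3.37 ± 0.22, edgeR adjusted p = 6.33e-08). Ikbke, a kinase that activates interferon regulatory factors, had 14.5, 11.6, 10.02, 15.96 and 9.34 CPM in resting pools and 253, 109, 94.9, 60.04 and 49.6 CPM in day 7 pools (log2 fold change 3.21 ± 0.41, edgeR adjusted p = 3.04e-05). Zbp1 and Ikbke had the largest changes of this list, and Ikbke the wider spread at day 7. Tmem173, which encodes the DNA-sensing adaptor STING, had 33.6, 40.7, 33.6, 28.7 and 41.1 CPM in resting pools and 134, 172, 166, 126 and 90.9 CPM in day 7 pools (log2 fold change 1.95 ± 0.17, edgeR adjusted p = 8.12e-07). Aim2, a DNA sensor of the inflammasome, had 15.6, 20.4, 10.8, 15.7 and 15.1 CPM in resting pools and 51.3, 46.1, 46.9, 41.1 and 32.5 CPM in day 7 pools (log2 fold change 1.49 ± 0.17, edgeR adjusted p = 8.16e-06). Neither overlapped. The 2 lower genes were Ticam1, the adaptor of Tlr3 (-0.60, edgeR adjusted p = 0.0109), and Mavs, the adaptor through which RIG-I and MDA5 signal (-0.55, edgeR adjusted p = 0.0332). The call of Mavs ended without day 7 pool 1, 4 or 5 or resting pool 1, 3 or 4, with edgeR adjusted p from 0.0599 to 0.09995.

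A further list held 52 antiviral interferon-stimulated genes outside the 36. It too was chosen with earlier results of these data known. Of its genes 42 were higher, none was lower, 4 did not pass (Oas1c, Ifitm2, Ifitm6 and Tdrd7) and 6 were not tested. The median log2 fold change was 1.12 over the 46 tested. Of all tested genes, 23.3% were called higher and 23.4% lower. Trim30c, a relative of Trim30a, had 0.848, 0.994, 2.48, 2.57 and 2.00 CPM in resting pools and 79.7, 34.4, 27.8, 24.3 and 14.4 CPM in day 7 pools (log2 fold change 4.35 ± 0.49, edgeR adjusted p = 9.91e-06), the largest change among the tested genes of the list. Phf11a had 3.07, 4.38, 1.55, 7.30 and 3.11 CPM in resting pools and 25.2, 34.7, 45.4, 33.7 and 15.2 CPM in day 7 pools (log2 fold change 3.02 ± 0.37, edgeR adjusted p = 2.09e-05). In both, every day 7 pool was above every resting pool and pool 5 was lowest of its group. Phf11b, a relative of Phf11a and a more abundant gene by CPM, had 16.9, 28.6, 15.9, 25.3 and 18.7 CPM in resting pools and 109, 153, 168, 148 and 80.5 CPM in day 7 pools (log2 fold change 2.64 ± 0.23, edgeR adjusted p = 7.35e-07). Parp10, another ADP-ribosyltransferase, had 34.5, 45.05, 49.6, 47.3 and 39.8 CPM in resting pools and 360.2, 249.7, 238, 249.8 and 298 CPM in day 7 pools (log2 fold change 2.69 ± 0.15, edgeR adjusted p = 1.32e-08). None of these 4 genes overlapped between groups, and unlike most members Parp10 was not lowest in pool 5. Relatives within families had different calls: Ifitm1 was higher by 1.08 while Ifitm2 and Ifitm6 stood at 0.08 and -0.09 and did not pass, and Oas1b was higher by 1.35 while Oas1c stood at 0.24. Uba7 and Ube2l6, the enzymes that activate and carry ISG15, were higher by 1.34 and 1.68. The differences within these families were not tested.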

How the data were processed

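The labels' protocols name Trizol for extraction and NEBNext Ultra II for the libraries. The submitters' processing notes list STAR 2.5.2b, Trimmomatic 0.36, Subread 1.5.2, featureCounts, bcl2fastq 2.17 and build mm10; no source used here states the strand setting, the annotation release or how multiply matching reads were handled. For each gene the authors deposited raw counts per gene, whole numbers that sum to different totals. Columns were tied to samples by name, and 10 columns that match no label were not used.

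The 36 genes and the pathway and marker lists were chosen with earlier results of these data known. Of 256 list entries all were matched, 1 through a synonym. Genes were filtered with filterByExpr by group, and 32815 were removed. The test was edgeR 4.0.16 (R 4.3.3), quasi-likelihood with robust dispersion and TMM scaling, with group as the only term, adjusted over 16500 genes by Benjamini-Hochberg with a threshold of 0.05; it was tested on simulated data. Log2 fold changes are given ± SE. RPKM used merged exon lengths of GENCODE M21. Values in every library are printed, by rule, for the gene with the highest RPKM and the gene with the largest change in each role group, for members that did not pass, for the 4 largest called changes of each pathway list (20 CPM or more in the higher group), and for set signalling genes. Alternatives were library totals, DESeq2 size factors, DESeq2 1.42.0, limma 3.58.1 (voom), other filters, thinned counts, summed copies, a 2-fold minimum, a replicate block and leaving out each pool. No pair of libraries in a group agreed within sampling noise (chi-square per degree of freedom 6.57 or more). Results for 2 genes of the pathway lists are not reported here, and the list counts include them.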

Additional observations from a re-analysis of the deposited data

Results flagged for a closer look

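Within the 5 day 7 libraries, 2 of the 36 antiviral genes had 1 library far from the other 4 by Dixon's criterion (a gap of more than 0.71 of the range). Eif2ak2, the kinase PKR, stood at 38.58 CPM in day 7 pool 5 and at 52.29 to 57.33 CPM in the other pools, a gap of 0.731 of the range. Usp18, the ISG15 protease, stood at 42.08 CPM in pool 5 and at 73.68 to 81.84 CPM in the others, a gap of 0.795. Over the members 72 groups were examined, and chance marks about 1 in 20 groups. Both were low in the same pool, which was lowest in 31 of the 36 genes.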

How the results depend on the processing

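Under every alternative run, 30 to 36 of the members were called higher and none lower. Of 646 values of single members under the alternatives (summed pairs not counted), 631 kept their direction and side of the threshold, 9 lost a call, 6 gained one and none reversed; for 32 of 36 genes every value kept both. The exceptions were Ifi27 (lost in 8 alternatives), Ifitm3 (lost with library totals), Ifit3b (gained in 4) and Mx2 (gained in 2).

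Scaling by library totals alone moved the all-gene median (log2) from 0.05 to -0.14, a drop of 0.189, and changed the share of higher genes among all called from 49.9% to 33.8%; 32 members were called higher, with a median of 1.64. All genes called higher numbered 3843 in the reported fit, 2495 with library totals, 2257 with at least 10 CPM in 5 libraries, 1498 with a 2-fold minimum and 3507 to 3976 without single pools. All genes called lower numbered 3859, 2420 with the 10 CPM filter, 6715 with no filter and 3669 to 4020 without single pools. Without a filter more genes were tested (42249), and with the 10 CPM filter fewer (9185), which left out Ifng, so 0 ligands were called. The 10 CPM filter also left out 2 members. Lower receptor and signalling genes numbered 2 in place of 1 with library totals and 1 to 2 without single pools; lower sensing genes numbered 1 in place of 2 with no filter and with thinned counts, and 1 to 2 without single pools. The cause was not tested. Members called higher numbered 33 to 36 without single pools.

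Pools share only a number: same-numbered pools correlated at -0.188 to 0.12, and none correlated best with its own number. With the number as a replicate block, 34 members, 3317 genes higher and 3636 lower were called; among members Ifi27 lost its call (edgeR adjusted p = 0.0671) and Ifit3b gained one (edgeR adjusted p = 0.0452). In the resting libraries, which had lower depth, 3 counts correspond to 0.233 to 0.450 CPM. Whether depth limited the result for genes with few counts, such as the type I interferons, was not tested.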
